A study of Mus musculus with 11 samples.

Results

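The comparison set the day-0 RNA library labelled TKO_FL against the library labelled TKO, both made from J1 cells, a line of mouse embryonic stem cells. Genes were taken from the deposited gene table if their exons covered at least 200 bases and their level reached 1 TPM (fragments scaled by exon length and library size) in at least 1 of the 2 libraries. That left 13415 of 25239 genes, measured in 2 of the 11 samples of the series. Acpp, at 1.00 TPM in TKO and 0.260 in TKO_FL, lay just inside the level limit, and Srpx, at 0.929 and 0.999 TPM, lay just outside it.

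By its label the TKO line is a mutant of DNA methyltransferases: labels of other samples in the series spell the genotype as DNMT TKO, and the series' design text writes the second genotype as TKO+FL. The sources used here do not say what FL stands for, which promoter drives it, or whether either line is 1 clone. Both cultures shared the J1 background, serum, LIF and a layer of mitomycin C-treated mouse embryonic fibroblasts, so RNA of feeder cells can be in either library. The series also holds another RNA library, TKO_602, used only for values set beside these, and 8 immunoprecipitations of modified DNA, which were not analysed here. Each genotype had 1 library, so no difference below could be set against the spread of replicates, and none has a p-value. Cells of separate cultures or clones can differ on their own, and here that cannot be told apart from the genotype.

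DNMT1 copies methylation onto the new DNA strand after replication, and DNMT3A and DNMT3B place it anew. Embryonic stem cells without all 3 enzymes keep dividing while their DNA loses methylation. In such cells a set of germline genes with methylated promoters is known to become active. Stem cells grown in serum and LIF also hold a small and variable number of cells that turn towards primitive endoderm, the lineage of the yolk sac. That lineage is led by GATA6, GATA4 and SOX17, makes the basement membrane proteins laminin and collagen IV, and takes up maternal proteins by endocytosis.

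The TKO library held 21133660 reads on genes and the TKO_FL library 19573689, and the signal values gave 10860312 and 10084490 fragments. Dnmt1 was read first as a check of the labels. It stood at 54.9 TPM in TKO and 1177 TPM in TKO_FL, 21.4 times higher. Its log2 fold, taken here and below as log2 of the ratio of TPM plus 1, was 4.40, the largest of any gene compared. A gene total adds all annotated exons, so it cannot show a deleted part, and the chromosomal gene and an added copy cannot be told apart in it. In the TKO library all 3 methyltransferase genes had reads: beside Dnmt1, Dnmt3b was at 36.9 TPM and Dnmt3a at 7.85 TPM (8.12 in TKO_FL). Markers of the labelled cell type were high in both libraries. Pou5f1, the OCT4 gene, had 2069 TPM in TKO and 1926 in TKO_FL, Sox2 had 443 and 518, and Zfp42 had 1198 and 1591.

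Of the 13415 genes, 413 (3.08%) had at least a 2-fold higher level in TKO_FL and 356 (2.65%) at least a 2-fold lower one, together 5.73%. Counts given below for gene lists are to be set against these shares. At a mean of 1 to 5 TPM the shares were larger, at 5.84% higher and 5.43% lower. The median log2 fold was 0.00, 50.1% of genes lay above 0, and 75.2% of all genes were within 0.5 of it in either direction. The sides differed in their extremes: 8 genes were more than 4-fold higher and 32 more than 4-fold lower. The 95% interval of the fragment ratio, which covers counting error only, lay wholly above 0 on the log2 scale for 377 of the 413 and wholly below 0 for 311 of the 356. It lay wholly past 2-fold for 197 genes higher (1.47%) and 146 lower (1.09%), a count that also takes in genes kept under 2-fold by the added 1 TPM. In TKO 45 of the higher genes were at 0, and in TKO_FL 44 of the lower ones. The counts rest on the 1 TPM added to each value: with 5 TPM added, 77 genes were at least 2-fold higher and 63 lower.

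**Figure D1:**
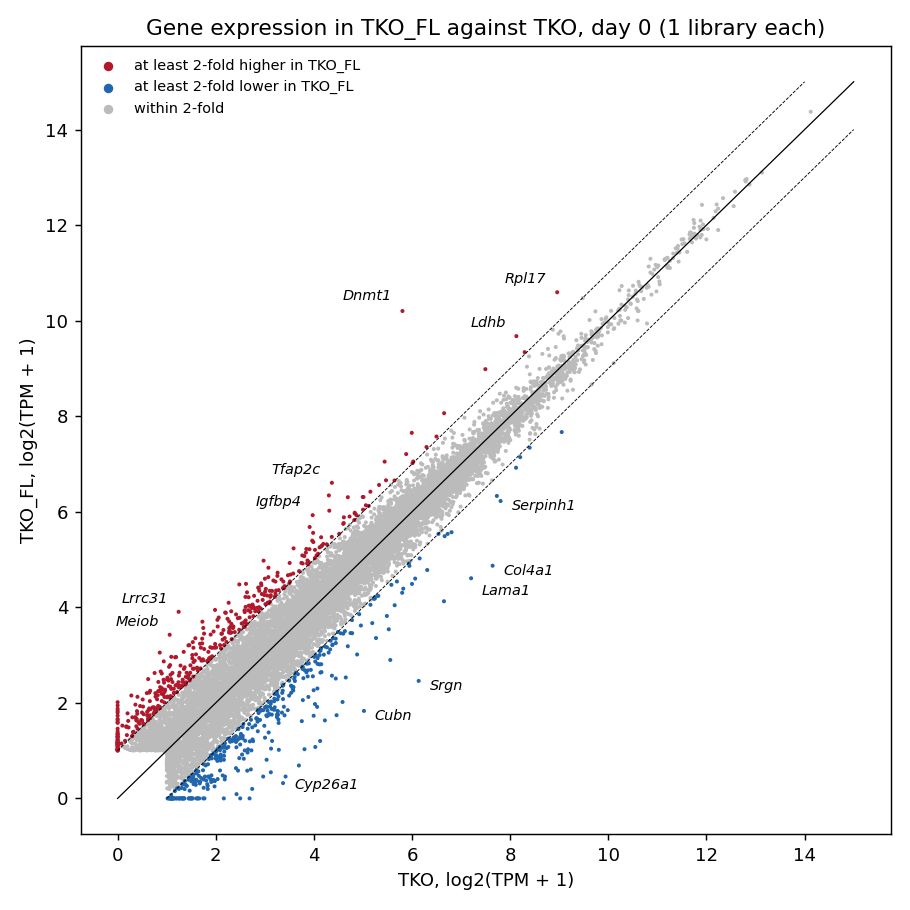
Level of each of the 13415 genes in TKO (horizontal axis) and TKO_FL (vertical axis), both as log2(TPM + 1), with 1 point per gene. Dashed lines mark 2-fold: Dnmt1 stands far above them, and Srgn, Cubn, Cyp26a1, Col4a1 and Lama1 far below.

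The 15 genes with the lowest folds among genes of at least 5 TPM in 1 library included 6 members of the endoderm lists described below. The lowest, Srgn, is in the list of endothelial and blood genes and encodes the granule proteoglycan serglycin. It was at 69.3 TPM in TKO and 4.50 in TKO_FL (log2 fold -3.68). Cubn, whose product cubilin is an endocytic receptor, was at 31.4 and 2.56 TPM (log2 fold -3.19), and Amn, which encodes the partner that brings cubilin to the membrane, at 21.0 and 2.34 TPM (log2 fold -2.72). The genes of both receptor partners were thus low in the same library. Dab2, an endocytic adaptor for receptors of this family, was at 46.1 and 6.45 TPM.

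Other genes among the 15 lowest encode proteins of varied function. Cyp26a1, which degrades retinoic acid, had 81 fragments in TKO and 2 in TKO_FL (9.35 and 0.248 TPM). Pth1r, the receptor of parathyroid hormone and its related peptide, had 16.5 and 1.30 TPM, and Aqp8, a water channel, 13.0 and 1.04 TPM. Nostrin, which binds and moves endothelial nitric oxide synthase, had 11.9 and 0.612 TPM. Thin counts stand behind several of these values: Lgals2, a galectin, had 28 fragments in TKO and 1 in TKO_FL, and S100g, a calcium-binding protein, 18 and 1. Crct1 had 19 fragments in TKO and 0 in TKO_FL, which by a floor of 3 fragments in TKO_FL makes it at least 5.88-fold lower. Hs3st1, a heparan sulfate sulfotransferase, had 17.7 and 2.10 TPM.

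The 15 genes with the highest folds, chosen by the same rule, were more mixed. After Dnmt1 came Lrrc31, a leucine-rich repeat gene (mm10 chromosome 3, 30678554 to 30699843, minus strand), at 1.37 TPM in TKO and 14 in TKO_FL (log2 fold 2.66). Meiob, which encodes a single-strand DNA binding protein of meiotic recombination (chromosome 17, 24804382 to 24839787, plus strand), followed at 1.09 and 9.74 TPM (log2 fold 2.36). Tfap2c, a transcription factor of germ cells and trophoblast, was at 19.6 and 96.4 TPM (log2 fold 2.24) and rested on 293 and 1337 fragments. Sycp3, of the synaptonemal complex that joins homologous chromosomes, was at 4.58 and 21.3 TPM (log2 fold 2.00). Ccdc155, whose protein KASH5 links meiotic telomeres to the cell's motors, was at 0.837 and 5.31 TPM. Apart from these germline genes the group held Ndufa4l2, a mitochondrial protein known from hypoxia, at 18.8 and 80.1 TPM, and Igfbp4, a binding protein of insulin-like growth factors, at 14.7 and 59.9 TPM. It also held Psmb8, an immunoproteasome subunit (2.35 and 10.9 TPM), Copz2, a coatomer subunit (6.86 and 30.5 TPM), and Patl2, an RNA-binding protein of oocytes (3.80 and 16.1 TPM). Rnf157, a ubiquitin ligase, was at 2.96 and 14.4 TPM, Otud6a, a deubiquitinase, at 2.31 and 12.0 TPM, Adssl1, of purine synthesis, at 0.918 and 6.30 TPM, and Shisal2a at 0.686 and 5.17 TPM. Several of the higher genes rested on thin counts in TKO. Shisal2a had 3 fragments in TKO and 21 in TKO_FL, Adssl1 8 and 51, and Meiob 9 and 75. Shisal2a, Adssl1 and Ccdc155 passed the level limit through TKO_FL.

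**Figure D2:**
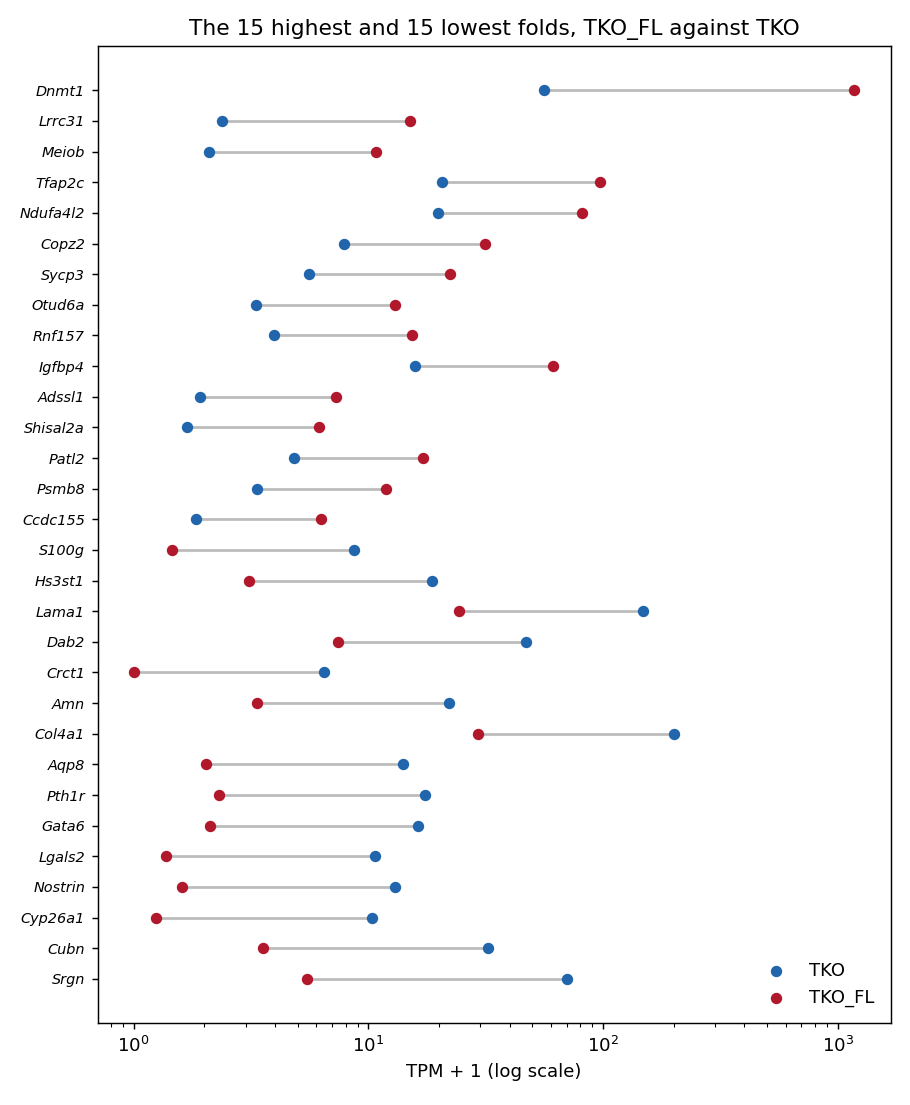
The 15 highest and 15 lowest folds among genes of at least 5 TPM in 1 library, as TPM + 1 on a log scale, with 1 point per library and a line joining the points of a gene. Dnmt1 has the longest line, from 54.9 TPM in TKO to 1177 TPM in TKO_FL; for the 15 lowest genes the TKO_FL point lies to the left.

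The sequence before the start of a gene is where methylation of CG pairs is known to bear on germline promoters. The deposited RNA tables hold no methylation values, so the sequences are a description only. They are shown for 3 germline genes higher in TKO_FL (Sycp3, Stra8, Rec8) and 3 genes lower in it (Srgn, Cubn, Amn), a choice made after the values were seen. Each is the 250 bases up to the base before the annotated start, 5′ to 3′ on the gene's strand, from RefSeq on GRCm38.p6, the assembly that mm10 presents, with every CG pair in capitals. The stretches are chr10:88459337-88459586 (plus strand) for Sycp3, chr6:34920698-34920947 (plus) for Stra8, chr14:55617916-55618165 (plus) for Rec8, chr10:62527446-62527695 (minus) for Srgn, chr2:13491877-13492126 (minus) for Cubn and chr12:111270846-111271095 (plus) for Amn. None overlaps an exon of the deposited annotation.
Sycp3: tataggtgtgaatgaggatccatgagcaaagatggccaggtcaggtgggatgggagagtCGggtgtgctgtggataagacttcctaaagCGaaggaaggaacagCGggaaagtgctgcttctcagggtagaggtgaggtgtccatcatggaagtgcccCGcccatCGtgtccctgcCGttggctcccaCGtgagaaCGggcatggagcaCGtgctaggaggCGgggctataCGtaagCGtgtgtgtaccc
Stra8: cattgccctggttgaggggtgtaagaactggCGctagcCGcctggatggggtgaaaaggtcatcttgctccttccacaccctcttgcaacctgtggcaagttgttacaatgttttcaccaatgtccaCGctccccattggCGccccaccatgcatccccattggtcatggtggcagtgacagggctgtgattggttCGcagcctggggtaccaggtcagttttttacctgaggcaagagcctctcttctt
Rec8: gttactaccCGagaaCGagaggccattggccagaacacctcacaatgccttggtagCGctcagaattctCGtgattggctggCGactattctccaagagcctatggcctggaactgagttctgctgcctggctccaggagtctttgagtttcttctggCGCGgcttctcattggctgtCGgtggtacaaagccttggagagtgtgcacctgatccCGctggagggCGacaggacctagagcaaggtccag
Srgn: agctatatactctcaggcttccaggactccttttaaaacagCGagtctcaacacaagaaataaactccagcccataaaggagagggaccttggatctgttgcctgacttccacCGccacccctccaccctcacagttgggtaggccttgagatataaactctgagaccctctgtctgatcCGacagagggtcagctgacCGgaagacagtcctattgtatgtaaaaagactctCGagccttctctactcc
Cubn: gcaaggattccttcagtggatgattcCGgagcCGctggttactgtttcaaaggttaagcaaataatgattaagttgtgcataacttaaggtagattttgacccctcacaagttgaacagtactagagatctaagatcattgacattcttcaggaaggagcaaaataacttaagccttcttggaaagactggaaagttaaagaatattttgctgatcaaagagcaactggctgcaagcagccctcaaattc
Amn: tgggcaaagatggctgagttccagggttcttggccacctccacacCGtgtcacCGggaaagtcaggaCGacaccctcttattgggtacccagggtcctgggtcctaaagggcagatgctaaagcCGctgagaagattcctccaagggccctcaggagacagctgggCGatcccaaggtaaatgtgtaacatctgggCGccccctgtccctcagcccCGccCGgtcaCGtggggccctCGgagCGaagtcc
Sycp3 held 12 CG pairs, Rec8 10 and Stra8 5, against 11 in Amn, 5 in Srgn and 2 in Cubn. Over all 32851 RefSeq windows of this length the median was 6, with quartiles of 2 and 16. The counts of the higher and the lower genes overlapped. The letters CACGTG, which read the same on both strands, occurred 2 times in Sycp3, 1 time in Amn and in none of the other 4, and 6.02% of all windows held them. A count of CG pairs over all genes past 2-fold was void, because RefSeq windows matched 78.7% of the higher and 73.9% of the lower genes, under the 80% required.

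Transcription factors and the receptor gene of primitive endoderm were lower in TKO_FL as a group. Of 14 genes listed 13 were compared, and 9 of them passed 2-fold downward and 0 upward, with a median log2 fold of -1.26 against 0.00 over all genes. Gata6, which starts the lineage, was at 15.3 TPM in TKO and 1.11 in TKO_FL, and Gata4, which acts with it, at 23 and 3.05 TPM. Both were thus several times lower in TKO_FL. Foxa2, a forkhead factor of endoderm, was at 3.56 and 0.373 TPM. The SOX factors Sox7 (5.48 and 1.29 TPM) and Sox17 (3.51 and 0.972 TPM), which follow GATA6, were lower too. Foxa2 and Sox17 passed the level limit through TKO. Pdgfra, the receptor that marks the lineage on the cell surface, was at 7.02 and 1.41 TPM. The 2 members above 0 were Sall4 (121 and 134 TPM) and Grb2 (103 and 106 TPM), which all stem cells express. With 5 TPM added, 3 of the 13 passed 2-fold. A bulk library cannot tell fewer cells of a type from less RNA per cell.

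Genes of visceral endoderm, the epithelium that feeds the early embryo, were compared for 14 of 22 listed, and 9 were at least 2-fold lower and 0 higher (median log2 fold -1.38). With no level filter the median was -0.74. Beside Cubn, Amn and Dab2 the lower members were Lrp2, the gene of the partner receptor megalin (28.5 and 7.07 TPM), Spink1, a protease inhibitor (43.8 and 13.1 TPM), Amot, which holds YAP at cell junctions (12.7 and 3.16), Slc39a8, a metal importer (3.41 and 0.395), Ihh, a hedgehog ligand (1.62 and 0.218), and Trf, the iron carrier transferrin (6.52 and 2.56). Slc39a8 and Ihh passed the level limit through TKO. Of the 14, 3 went the other way, up to a log2 fold of 0.66. The secreted apolipoprotein Apoe was 1 of these, at 546 TPM in TKO and 789 in TKO_FL. Ttr, Afp and Apob, which mark mature visceral endoderm, stayed under 1 TPM in both libraries and were not compared.

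Matrix genes known from parietal endoderm, which lays down a thick basement membrane, were among the most abundant transcripts that differed. Bulk libraries cannot show which cells this RNA came from. All 20 listed genes were compared, with 9 at least 2-fold lower and 0 higher (median log2 fold -0.78), and 18 of 20 lay below 0. The laminin-111 chains were all lower: Lama1 was at 146 TPM in TKO and 23.4 in TKO_FL, Lamb1 at 211 and 79.5, and Lamc1 at 277 and 120. The collagen IV chains Col4a1 (199 and 28.3 TPM) and Col4a2 (99.4 and 16.5 TPM) differed by similar folds, with log2 folds of -2.77 and -2.52. Sparc, a matrix glycoprotein, was at 529 and 202 TPM, and Serpinh1, the collagen chaperone, at 223 and 73.8 TPM. Fst, the follistatin gene (10.6 and 5.57 TPM), and P4ha2, a collagen prolyl hydroxylase (33.3 and 19.6 TPM), were lower by less than 2-fold. Members near equal included the nidogens Nid1 (79.2 and 67.1 TPM) and Nid2 (180 and 209 TPM), Lama5 (54.2 and 50.8 TPM) and Lamb2 (14 and 13.7 TPM). The highest log2 fold of the list was 0.56.

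Markers of fibroblasts, the feeder cells, were lower in TKO_FL at the same time. Of 38 compared, 36 had a log2 fold below 0 and 5 were at least 2-fold lower, with a median of -0.61. The summed level of the list was 1838 TPM in TKO and 1393 TPM in TKO_FL. Col1a1, of collagen I, was at 60.2 and 29.2 TPM, and Cdh11, a mesenchymal cadherin, at 13.4 and 5.23. S100a4, also called fibroblast-specific protein, was at 111 and 46.6 TPM. Vim, the vimentin gene, was at 387 and 213 TPM, short of 2-fold. The 2 members above 0 were Fn1 (278 and 386 TPM) and Mmp2 (13.4 and 21.8 TPM). The lowest log2 fold of a listed fibroblast marker was -1.23, and with 5 TPM added 1 marker passed 2-fold. The endoderm and matrix lists held lower folds, such as Col4a1 (-2.77), and similar ones, such as Sox17 (-1.19). The part of the feeder cells in the lower matrix and endoderm values was not tested.

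Actin and contractile genes, which fibroblasts express strongly, also leaned low. Of 41 compared, 33 lay below 0, 5 were at least 2-fold lower and 0 higher (median log2 fold -0.28). Acta2, smooth muscle actin, was at 49.1 TPM in TKO and 15.5 in TKO_FL, and Tagln, transgelin, at 70.2 and 31.5. Among 20 targets of YAP and TEAD 1 was at least 2-fold lower. Mesoderm genes had 4 of 12 at least 2-fold lower, but those 4 (Gata4, Pdgfra, Foxa2 and Sox17) are also members of the primitive endoderm list. Of 17 neuroectoderm genes 0 passed 2-fold. Endothelial and blood genes had 4 of 18 at least 2-fold lower, namely Srgn, Nostrin, Cdh5 (2.37 and 0.167 TPM) and Esam (7.83 and 2.37 TPM), and 2 higher. The higher ones were Pecam1, which naive stem cells also express (23.4 and 58.0 TPM), and Hbb-bh1 (0 and 1.09 TPM). Nostrin and Cdh5 passed the level limit through TKO, and Hbb-bh1 through TKO_FL. With 0.1 TPM added 8 of the 18 were lower, and with 5 TPM added 2.

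**Figure D3:**
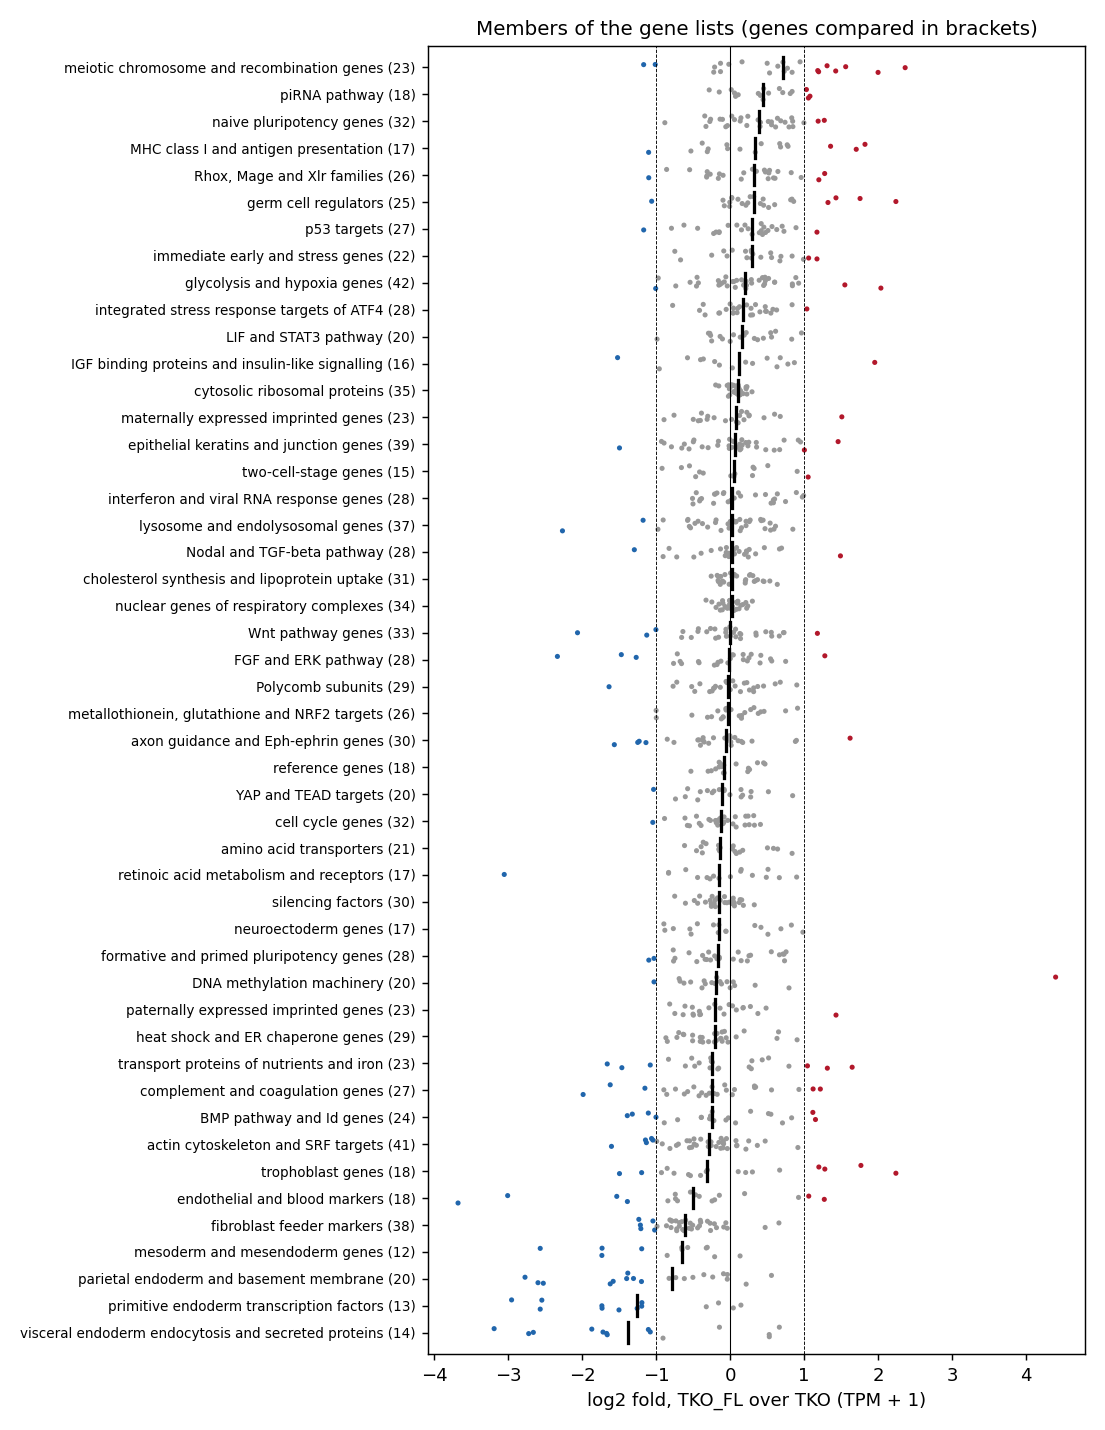
Log2 fold of each compared member of 48 gene lists, with 1 point per gene, a black bar at the list's median and dashed lines at 2-fold. The 4 endoderm and mesoderm lists lie lowest, with medians from -1.38 to -0.65, and the meiotic list lies highest, with a median of 0.71.

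Genes of meiotic chromosomes were the list with the highest median. Among the 23 compared, 7 passed 2-fold upward (30.4%) and 2 downward (8.7%), against 3.08% and 2.65% of all genes. The median log2 fold was 0.71. The higher ones came from several parts of the meiotic machinery. Rec8 and Smc1b, subunits of meiotic cohesin, were at 7.40 and 13.3 TPM in TKO and at 23.8 and 34.4 in TKO_FL. Meioc, which keeps germ cells in meiosis, was at 7.86 and 19.3 TPM. Terb1 and Terb2, which tie telomeres to the nuclear envelope, were at 0.0697 and 3.41 TPM in TKO and at 1.87 and 9.01 in TKO_FL. Their partners Majin (1.66 and 4.11 TPM) and Sun1 (81.4 and 116 TPM) were also above 0 but under 2-fold. Ccdc155, described above, acts in the same attachment; these genes were put together after their values were seen. Terb1, with 1 and 25 fragments, and Ccdc155 passed the level limit through TKO_FL. With 5 TPM added, 4 of the 23 meiotic genes passed 2-fold upward and 0 downward.

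The synaptonemal complex, in contrast, was uneven. Sycp3, of its lateral element, was among the highest genes, while Sycp1, of the transverse filaments, was at 7.30 TPM in TKO and 6.12 in TKO_FL. Syce1 (30.6 and 30.3 TPM) and Syce2 (156 and 174 TPM), central element proteins, had near-equal values. Tex12, another central element gene, was at 3.66 and 1.08 TPM and counted among the lower genes, as did Spata22, the partner of MEIOB, at 4.52 and 1.74 TPM. Neither of these lower genes passed 2-fold on CPM with TMM factors, a scaling of the read counts. A 5 TPM minimum leaves both out by their level, whatever their fold, as it does the higher gene Terb1. Spo11, which makes the meiotic breaks, was under 1 TPM in both libraries and was not compared.

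Regulators of germ cells had 4 of 25 compared members at least 2-fold higher (16%) and 1 lower (4%), with a median log2 fold of 0.32. Stra8, the gene that starts meiosis in answer to retinoic acid, was at 7.42 TPM in TKO and 27.4 in TKO_FL, and Sohlh2, of early germ cell differentiation, at 14.6 and 41.1. Tex14, of the bridges between germ cells, had a log2 fold of 1.32, and Tfap2c is given above. Some widely used markers of a methylation-deficient germline programme were near equal: Dazl was at 60.3 and 64.9 TPM, Tex19.1 at 164 and 190, and Nanos3 at 7.60 and 7.58. Other germline genes, such as Sycp3 and Stra8 above, were not. Zp3, of the egg coat, was at 12.6 and 5.54 TPM.

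The piRNA pathway, which silences transposons in germ cells, had 16 of 18 members above 0 (median log2 fold 0.45). At least 2-fold higher were 3 of the 18 (16.7%), and 0 were lower. The 3 were Gtsf1 (6.55 and 14.7 TPM), Exd1 (1.37 and 4.01 TPM) and Tdrkh (2.23 and 5.59 TPM). With 5 TPM added, 0 passed 2-fold. The PIWI genes Piwil2 (20.3 and 18.2 TPM) and Piwil4 (4.25 and 4.30 TPM) were near equal. Of 26 Rhox, Mage and Xlr genes compared, 2 were at least 2-fold higher and 1 lower. Many of these lie in near-identical copies, so their single values are uncertain. Genes of the 2-cell stage had 1 of 15 higher, Dux (1.22 and 3.61 TPM), a gene of repeated copies. Dux did not pass on CPM, and a 5 TPM minimum leaves it out by its level. Zscan4c (2.53 and 1.56 TPM) and Zscan4d (1.86 and 1.22 TPM) were lower by less than 2-fold.

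Naive pluripotency genes had 23 of 32 members above 0, against 50.1% of all genes, and their median log2 fold was 0.39. Upward 2 passed 2-fold and downward 0. Nanog was at 435 TPM in TKO and 679 in TKO_FL, and Esrrb, an orphan nuclear receptor of the naive network, at 220 and 354. Tfcp2l1, a factor downstream of LIF, was at 36.6 and 66.0 TPM, and Dppa3, which keeps UHRF1 off chromatin in oocytes, at 115 and 200. All 4 were higher in TKO_FL by less than 2-fold. Nr5a2, at 46.5 and 93.7 TPM, lay just under the 2-fold threshold, and Jam2, at 43.3 and 100 TPM, above it. Klf5 (126 and 100 TPM), Gbx2 (56.1 and 30.0 TPM) and Utf1 (557 and 439 TPM) were below 0. Formative and primed genes had 2 of 28 at least 2-fold lower and 0 higher: Cdh2, N-cadherin (11.1 and 4.66 TPM), and Dnmt3b (36.9 and 17.6 TPM). The LIF and STAT3 pathway had 0 of 20 past 2-fold.

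Most other genes of the methylation machinery differed little. Of 20 compared, Dnmt1 was the single gene at least 2-fold higher and Dnmt3b the single gene at least 2-fold lower, which did not pass with 5 TPM added. Uhrf1, which brings DNMT1 to the replication fork, was at 345 TPM in TKO and 299 in TKO_FL, Tet1, which oxidises methylcytosine, at 108 and 85.7, and Dnmt3l, the cofactor of the de novo enzymes, at 533 and 330. Tdg, a glycosylase of active demethylation, was listed at 0 in both libraries, as was the ribosomal gene Rpl30, so such a 0 is not read as absence. Of 30 silencing factors 0 passed 2-fold, and 20 lay below 0, with Ehmt2, a histone H3 lysine methyltransferase, lowest (108 and 64.0 TPM). Of 29 Polycomb subunits 1 was at least 2-fold lower, Cbx8 (4.57 and 0.794 TPM, 31 and 5 fragments).

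The Nodal, FGF and Wnt lists each had 1 member at least 2-fold higher, a share near the 3.08% of all genes. The shares lower were 3.57% for Nodal, 10.7% for FGF and 9.09% for Wnt, against 2.65% of all genes. These counts are small, so the values below describe single genes. Lefty1, an inhibitor of Nodal, was at 179 TPM in TKO and 506 in TKO_FL, and Nodal itself at 83.4 and 133. Lefty1 was the 1 of 28 Nodal and TGF-beta genes at least 2-fold higher, and Tgfbr2, a TGF-beta receptor, the 1 lower (4.85 and 1.39 TPM). In the FGF list Klb, the co-receptor for endocrine FGFs, had 73 fragments in TKO and 1 in TKO_FL (4.36 and 0.0643 TPM). Fgf3 (9.47 and 2.78 TPM) and Fgf10 (7.82 and 2.66 TPM) were also at least 2-fold lower, while Fgf4, the main FGF that stem cells make for themselves, was at 121 and 160 TPM. Fgfr2, a receptor, was at 5.65 and 15.1 TPM. The balance for this list was thus 1 of 28 higher and 3 lower.

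BMP genes past 2-fold lay on both sides. Of 24 genes compared, 2 passed 2-fold upward and 4 downward. Bmp2 (2.59 and 0.372 TPM) and the BMP inhibitor Grem1 (26.5 and 9.99 TPM) were lower, as were the target gene Msx2 and the protease gene Bmp1. The ligand gene Bmp7 was higher, at 2.07 and 5.67 TPM. All 4 Id genes, also targets of BMP, had higher values in TKO_FL: Id1 had a log2 fold of 0.55, Id2 was at 25.7 and 37.2, Id3 at 71.6 and 128, and Id4 at 3.99 and 10.1. Of 33 Wnt genes 1 was at least 2-fold higher and 3 lower. Dkk1, a secreted Wnt inhibitor, was the lowest of them, at 5.24 and 0.495 TPM. The axon guidance list, which includes ephrins and their receptors, had 1 of 30 higher, Efnb3 (2.30 and 9.15 TPM), and 4 lower, among them Efnb2 (18.7 and 7.30 TPM). Retinoic acid genes had 1 of 17 lower, Cyp26a1. Insulin-like growth factor genes had 1 of 16 higher, Igfbp4, and 1 lower.

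Among 18 trophoblast genes 4 passed 2-fold upward (22.2%) and 2 downward (11.1%), while the median log2 fold was below 0 (-0.31). With 5 TPM added, 1 passed upward. The higher ones were Tfap2c, Esx1 (1.28 and 6.78 TPM), Fgfr2 and Rhox9 (6.76 and 16.8 TPM), and the lower ones Krt8, a keratin of simple epithelia (54.7 and 18.8 TPM), and Ets2 (20.8 and 8.52 TPM). Cdx2, Elf5 and Gata3, which define trophoblast, stayed under 1 TPM in both libraries. Tfap2c is also a germ cell factor and Fgfr2 a widely used receptor. Of 39 epithelial genes 2 were higher and 1 lower.

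Metal transporters were among the transport proteins past 2-fold, which were 3 of 23 upward and 3 downward (13% each), and they lay on both sides. Slc30a1, which exports zinc, was at 11 TPM in TKO and 36.6 in TKO_FL, and Slc39a14, which imports zinc, iron and manganese, at 30.9 and 78.3. Fabp3, a fatty acid carrier, was at 313 and 647 TPM. Slc39a8, another metal importer, was the lowest of the list, at 3.41 and 0.395 TPM. Folr1, the folate receptor, was lower, at 65.9 and 23.3 TPM. The metallothioneins Mt1 (852 and 1171 TPM) and Mt2 (1567 and 1798 TPM), which bind zinc, were within 2-fold, and of the 26 genes of their list 0 passed 2-fold. Of 21 amino acid transporters 0 passed it.

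Metabolic and housekeeping groups were close to equal. Of 34 nuclear genes of respiratory complexes, 31 of cholesterol synthesis, 29 chaperones and 18 reference genes, 0 passed 2-fold. Chaperones leaned low, with 24 of 29 below 0. Of 28 interferon response genes 0 passed 2-fold either, with 15 above 0 and 13 below. Ifi35 lay just under 2-fold, at 10.1 and 21.1 TPM. Gbp7, with 9 and 41 fragments, was kept under it by the added 1 TPM and passed the level limit through TKO_FL. The glycolysis and hypoxia list had 2 of 42 higher and 1 lower. Its higher genes were Ndufa4l2 and Ldhb, a lactate dehydrogenase subunit, which was at 278 TPM in TKO and 817 in TKO_FL. All 35 listed ribosomal protein genes lay between -0.20 and 0.30, yet Rpl17, which was not listed, was at 496 and 1545 TPM (log2 fold 1.64). Genes of this family have many processed copies, so Rpl17 and Rps27a (1768 and 982 TPM) are uncertain.

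The shares past 2-fold in several stress and growth lists were near the 3.08% higher and 2.65% lower of all genes. Of 27 p53 targets 1 was higher and 1 lower, and of 28 ATF4 targets 1 was higher. Immediate early genes had a larger share, with 2 of 22 higher (9.09%), among them Fos (77.5 and 163 TPM). Of 32 cell cycle genes 1 was lower, Ccnd2, cyclin D2 (36.3 and 17.1 TPM). Of 37 lysosomal genes 2 were lower (5.41%). Imprinted genes, whose single active copy depends on DNA methylation laid down in the germ line, had 1 of 23 maternally expressed and 1 of 23 paternally expressed members higher and 0 lower. The higher ones were the maternally expressed Slc22a18 (1.17 and 5.17 TPM) and the paternally expressed Sgce (3.84 and 12.0 TPM). Within 2-fold, H19, expressed from the maternal copy, was at 173 and 128 TPM, and Peg3, from the paternal copy, at 41.0 and 46.5. Complement and coagulation genes had larger shares, with 2 of 27 higher (7.41%) and 3 lower (11.1%), and Clu, clusterin, lowest (45.1 and 10.6 TPM).

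Differences past 2-fold were most frequent among weakly expressed genes. Among genes with a mean under 1 TPM 9.65% were at least 2-fold higher and 9.86% lower, and among those of 100 TPM or more 0.564% and 0.395%. A gene with a mean under 1 TPM passed the level limit through 1 library, so its values had to differ. Counting error is largest at low levels: genes past 2-fold upward had a median of 96 fragments over both libraries, against 515 over all genes. At 100 TPM or more 10 of 1773 genes were higher and 7 lower. Beside those named above, the higher ones included Fxyd6, a regulator of the sodium pump (62.7 and 200 TPM), Lima1, an actin-binding protein (99.7 and 266 TPM), and Zfp296, a zinc finger protein of pluripotent cells (57.9 and 147 TPM), chosen after their values were seen. Glul, glutamine synthetase, was lower at 336 and 161 TPM. Long noncoding RNAs were past 2-fold more often than protein-coding genes: 6.93% of 375 were higher and 10.1% lower, against 2.93% and 2.37% of 12918. Their levels were not matched in that comparison.

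By chromosome, the median log2 fold of the autosomes and X lay between -0.03 and 0.06. Among these, chromosome 17 had the largest share of higher genes (4.53% of 684) and chromosome 9 the smallest (1.72% of 755). Chromosome 4 had 4.32% higher and 1.59% lower.

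**Figure D4:**
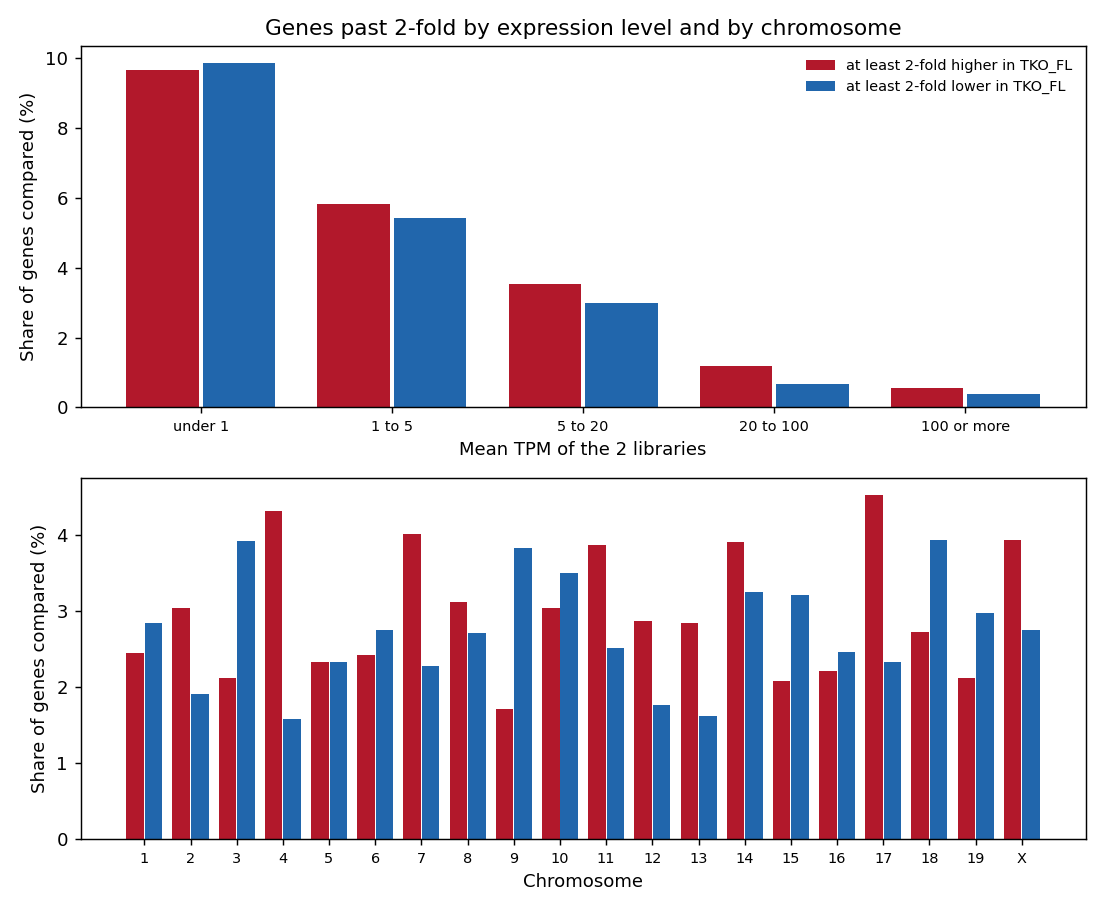
Share of compared genes at least 2-fold higher or lower in TKO_FL, in percent, by mean TPM of the 2 libraries (upper panel) and by chromosome (lower panel). The share of higher genes is 9.65% under 1 TPM and 0.564% at 100 TPM or more, and chromosome 17 has the tallest bar for higher genes at 4.53%.

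A single stretch of chromosome 17, the region of the major histocompatibility complex, held more genes higher in TKO_FL than any other window of 2 Mb with at least 20 compared genes. Of 88 compared genes between 34000001 and 36000000 (mm10), 12 were at least 2-fold higher (13.6%) and 2 lower, against 3.08% and 2.65% of all genes. Among the higher genes C2 and H2-Q2 passed the level limit through TKO_FL, and the lower gene Vwa7 passed it through TKO. The rank is by count and is lost by share: a window of chromosome 13 had 4 of 21 (19%) and one of chromosome 4 had 5 of 33 (15.2%). Over the 182 windows the median was 1 higher gene, and the next highest count was 5. The windows were drawn after the data were seen, and no test was run. In windows of 1 Mb the highest count was 8 of 51, and with starts shifted by 1 Mb it was 8 of 62, both on chromosome 17. The shifted window also had 4 of 62 genes lower (6.45%), and no window so drawn had more. With 5 TPM added to each value, 5 genes of the window were at least 2-fold higher.

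**Figure D5:**
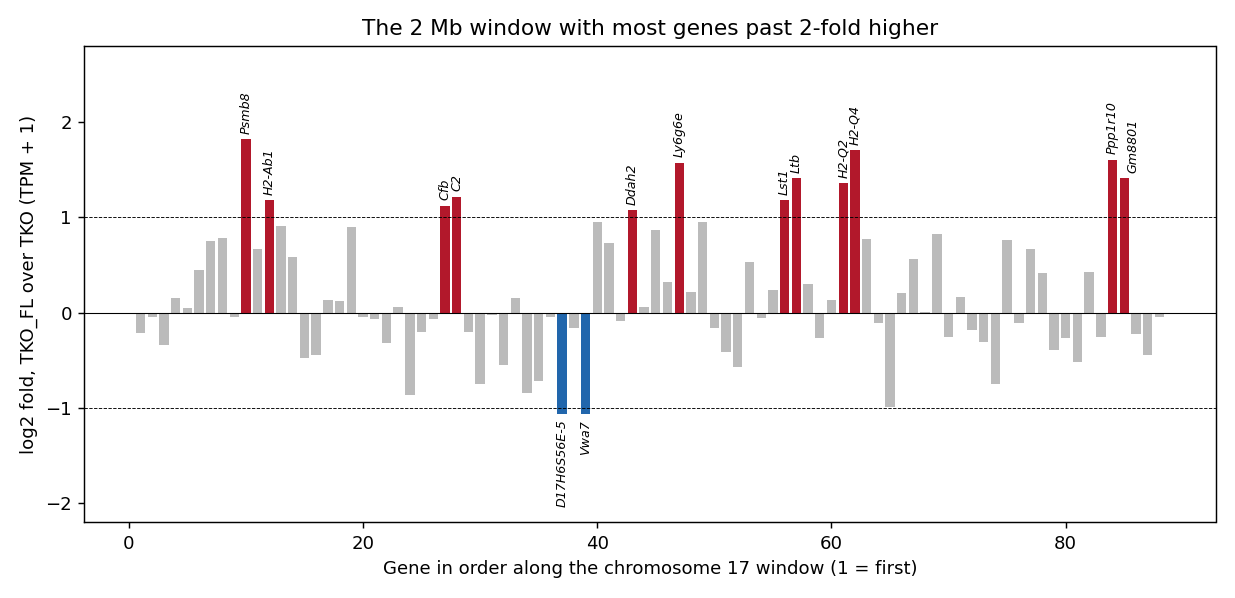
Log2 fold of the 88 compared genes of the chromosome 17 window, in their order along the chromosome, with 1 bar per gene and dashed lines at 2-fold. The 12 higher genes are spread along the window between genes near 0, and the 2 lower ones are D17H6S56E-5 and Vwa7.

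The higher genes of this window belong to several families. The list of antigen presentation genes, wherever they lie, had 3 of 17 at least 2-fold higher and 1 lower. The lower one was H2-M5 (20.8 and 9.15 TPM). Of the 17, 10 lay above 0 and 7 below, while the summed level of the list was 1581 TPM in TKO and 1307 in TKO_FL. Antigen presentation gave Psmb8, described above, H2-Ab1, a class II chain (1.90 TPM in TKO and 5.56 in TKO_FL), and the class I genes H2-Q4 (3.10 and 12.3 TPM) and H2-Q2 (0.708 and 3.38 TPM), whose near-identical copies make single values uncertain. The neighbouring complement genes Cfb (1.5 and 4.43 TPM) and C2 (0.544 and 2.59 TPM) were both higher. Ltb, lymphotoxin beta (1.13 and 4.65 TPM), and Lst1 (2.96 and 7.98 TPM) rested on 6 fragments each in TKO. The most abundant were Ddah2, of the family that breaks down methylated arginine (89.4 and 190 TPM), Ppp1r10, a regulatory subunit of protein phosphatase 1 (42.5 and 131 TPM), and Ly6g6e (14.8 and 46.1 TPM). Tap1, the peptide transporter gene that lies between Psmb9 and Psmb8, was near equal at 5.37 and 5.17 TPM, and Psmb9 was at 3.57 and 6.86 TPM.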

How the data were processed

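RNA was poly(A)-selected and made into libraries that do not mark strand, per the labels' protocols. Per the submitters' processing notes, Trim Galore, HISAT2, SAMtools, Subread and featureCounts were used with mm10. Per the file headers, the deposited read count table came from featureCounts 2.0.6 in paired mode on RefSeq genes of mm10, with no option for strand, for counting pairs or for reads that map to several places. Reads of overlapping genes, antisense partners and near-identical copies are therefore lost or cannot be told apart. The authors also deposited a gene signal table named TPM, whose columns sum to 10000000; its values were divided by 10 here. Signal times exon length gave whole fragments for 100% of values (tolerance 1e-06), with a median of 1.95 reads per fragment. The plan assumed plain TPM. Both tables also hold 11 columns that match none of these samples, which were not used. The repeat table was not used here.

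Log2 folds used a pseudocount of 1 TPM and a threshold of 2-fold. Exact 95% binomial intervals of fragment ratios cover counting error only, and PCR duplicates are not removed by them. A count of 0 was bounded by 3 fragments. CPM used TMM factors (edgeR 4.0.16). Python 3.11.15, numpy 2.4.6, pandas 2.3.3 and scipy 1.17.1 did the rest. The fold and interval steps were tested on simulated data. With 1 library per genotype no test across libraries was run. Named genes were the methylation genes, the 15 highest and 15 lowest folds with at least 5 TPM in 1 library (predicted and accession-like symbols left out), the 10 largest TPM differences and up to 4 members per list; others were chosen after their values were seen, and not all are given. The comparison and the 48 gene lists were chosen with earlier results of these data known. Of the genes past 2-fold, 47 of 413 higher and 77 of 356 lower are in a list. The values of 1 gene of the lists are not reported here.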

Additional observations from a re-analysis of the deposited data

How the results depend on the processing

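Among the 243 list medians and named genes with a log2 fold of at least 0.2 in size, 0 had the other sign under any setting tried: pseudocounts of 0.1 and 5, a 5 TPM minimum, no level or length filter, CPM with TMM factors, median-of-ratios scaling, and no predicted symbols. For a single gene a pseudocount or a filter cannot change the sign. Only CPM and median-of-ratios scaling could, so for single genes the other settings were no check of direction. Of 413 genes higher and 356 lower, a pseudocount of 0.1 gave 802 and 676, one of 5 gave 77 and 63, a 5 TPM minimum gave 240 and 195, and requiring the whole 95% interval past 2-fold gave 197 and 146. Of the counts for single lists, 91 of 768 differed from the reported count by over 1.5 times, most of them under the other pseudocounts. Of the list medians 3 of 384 moved beyond the spread of their members. The median of all genes shifted by -0.01 under median-of-ratios scaling. The comparison of promoter CG pairs and its alternatives were not run, since too few genes have a RefSeq window. No replicate could be left out, and no paired analysis was possible because each genotype has 1 library. Depth limits the low genes: at 1000 bases, 3 fragments are 0.617 TPM in TKO and 0.664 in TKO_FL.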

Other observations

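TKO_602, the other RNA library of the series, gives side-by-side values for some of the genes named in the report. Any fold of it would share the TKO library as reference, and per the file headers its reads were aligned in another folder, so its genotype and its handling cannot be told apart. Gapdh, used by every cell, was at 11.3 CPM (reads scaled to the size of the library) in TKO, 15.4 in TKO_FL and 170 in TKO_602, a gap whose source was not tested. Among lower genes Gata6 was at 21.7, 1.56 and 10.0 CPM, Cubn at 165, 13.4 and 23.8, and Col4a1 at 609, 86.7 and 224. TKO_602 thus lay between the others for these 3. Among higher genes Meiob was at 0.772, 7.44 and 20.3 CPM, Sycp3 at 2.03, 9.15 and 15.4, and Stra8 at 4.97, 18.3 and 30.9, each with TKO lowest. Lefty1 (135, 380 and 165 CPM) and Slc30a1 (25.5, 86.1 and 27.7 CPM) were high in TKO_FL and close in the other libraries. Of the genes of the chromosome 17 window, Psmb8 was at 1.35, 6.14 and 0.714 CPM, H2-Ab1 at 1.06, 3.17 and 10.4, and Ddah2 at 55.9, 119 and 80.9. The order of the 3 libraries thus differed from gene to gene.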
